A study of Mus musculus with 18 samples.

Results

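The genes described here encode the mitochondrial respiratory chain and the ATP synthase. A gene was taken where a probe set of the array carried its symbol alone and that symbol began with Nduf, Uqcr, Atp5 or Sdh, or with Cox followed by a digit. This gave 111 probe sets for 101 genes, of 22180 genes with a probe set of their own, and the brightest probe set stood for each gene. By the known place of their proteins, 40 of the 101 belonged to complex I, 8 to complex II, 8 to complex III, 27 to complex IV and 18 to complex V. These numbers include 20 assembly factors, which help to build a complex without being part of it, 8 isoforms known mainly from particular tissues, and 2 pseudogenes. Of the 101 genes, 93 passed a filter on dim values, which asked for a value above the median of its own array on at least 3 of the 18 arrays, and 89 were above that median on all 18. The 8 that did not pass were Ndufs5, Atp5j2, Cox7b2, Cox8b, Cox8c, Ndufa4l2 and the pseudogenes Uqcrh-ps1 and Atp5c1-ps, and these were above the median on 0 arrays. Another 11 probe sets whose annotation joined such a symbol to other genes were left out.

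In the respiratory chain, electrons from NADH enter at complex I and those from succinate at complex II. They pass through ubiquinone to complex III and through cytochrome c to complex IV, the cytochrome c oxidase, which reduces oxygen. Complexes I, III and IV pump protons across the inner membrane, and complex V, the ATP synthase, uses the gradient to make ATP. Most subunits are made from nuclear genes, such as the members here, and the others from mitochondrial DNA. The nuclear genes include known targets of the transcription factors NRF1, GABP, the estrogen-related receptors and YY1. Invariant natural killer T cells (iNKT cells) are T cells with a nearly fixed T cell receptor that recognises lipids on CD1d. In the thymus their early stages are known to divide, and most of the NK1.1+ cells are known to be resting.

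The study measured gene expression in iNKT cells sorted from the thymus of C57BL/6 mice. The Mst1KO mice carried Cd4Cre with Mst1fl/fl, so that Cre driven by the Cd4 promoter deletes Stk4, the gene of the kinase MST1, in T cells; other alleles of the WT mice were not given. From each genotype, stage S1 (CD44- NK1.1-), stage S2 (CD44+ NK1.1-) and stage S3 (CD44+ NK1.1+) were sorted within the cells that were TCRb+, bound the CD1d-PBS57 tetramer and lacked CD24, after an enrichment step with CD8 microbeads. Each of the 6 groups, Mst1KO S1, S2 and S3 and WT S1, S2 and S3, had 3 arrays of amplified RNA. The design gives 3 mice per genotype, but nothing says that a replicate number marks a mouse, so that the p-values reflect only how far these samples spread, and that spread may be technical.

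The array medians lay between 4.81 and 4.93 on the log2 scale, and arrays of 1 group correlated at 0.976 to 0.986. The 4 iNKT markers tested, Cd3d, Cd3e, Il2rb and Zbtb16, had a mean log2 level of 11.5 to 11.8 on every array, and B cell markers 4.03 to 4.41. Within that mean, S3 minus S2 was -0.90 in Mst1KO and -1.32 in WT for Zbtb16, and 1.11 and 1.00 for Il2rb. Cd44, the gene of CD44, was higher at S2 than at S1, by 2.08 in Mst1KO and 1.97 in WT. Klrb1c, the gene of NK1.1, was higher at S3 than at S2, by 3.84 and 3.24. Between stages of the same gate, Klrb1c was also higher at S2 than at S1, by 2.04 and 2.19. Cd44 was higher at S3 than at S2, by 0.67 and 0.55. Stk4 averaged 7.61, 7.48 and 7.66 in Mst1KO S1, S2 and S3, against 7.90, 7.83 and 8.04 in the WT stages. It was not called at any single stage, and over the stages together Mst1KO minus WT was -0.34 ± 0.06 (adjusted p = 0.0297). The deposited values do not show which exons the Stk4 probes cover, so this level checks the labels only in part.

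The respiratory chain genes were lower at S3 than at S2 in both genotypes. In Mst1KO cells 17 of the 93 tested members fell and 0 rose, which is 18.3% lower, where 9.18% of all 13034 genes tested were called lower and 8.01% higher. In WT cells 29 members fell and 0 rose, which is 31.2% lower, where 13.2% of all genes were called lower and 10.4% higher. The median difference of the members on the log2 scale, S3 minus S2, was -0.17 in Mst1KO, beside -0.03 for all genes tested. It was -0.22 in WT, beside -0.00098 for all genes tested. In each genotype 80 of the 93 members had a negative difference. Differences are given on the log2 scale with their standard error from limma, each group has 3 arrays, and a gene was called where its p adjusted over all genes tested was under 0.05. Each array averages a sorted population, so fewer cells of a type and less RNA per cell cannot be told apart, and RMA sets the probe intensities of all arrays to 1 distribution, so a change in total RNA per cell is not visible.

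The number of called members depended on single arrays. In Mst1KO, 10, 10 and 10 members were called lower at S3 than at S2 without S2 replicates 1, 2 and 3, and 4, 7 and 11 without S3 replicates 1, 2 and 3. Cox10, Ndufc1 and Atp5e kept an adjusted p under 0.05 in all 6 of these fits. In WT, the count was 13 without S2 replicate 3 and 18 without S3 replicate 1, and 21 to 30 without each of the other arrays. The 13 members that WT kept in all 6 fits were Cox10, Ndufc2, Ndufv2, Cox7a2, Uqcrq, Atp5g3, Atp5md, Cox5a, Cox15, Atp5a1, Ndufaf6, Atp5j and Ndufb6. The median difference of the members stayed between -0.19 and -0.15 in Mst1KO and between -0.26 and -0.17 in WT when 1 array was left out.

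The separation was visible array by array. A score was taken for each array as the median, over the 93 members, of the deviation of each gene from its own mean over the 18 arrays. It was 0.05 ± 0.06, 0.05 ± 0.04 and -0.11 ± 0.04 in Mst1KO S1, S2 and S3, and 0.08 ± 0.08, 0.06 ± 0.09 and -0.15 ± 0.03 in WT S1, S2 and S3 (SD, n = 3 each). All 6 arrays of S3 lay below all 12 arrays of S1 and S2, and the score over all genes tested stayed between -0.02 and 0.03. Replicate 3 was the highest array of both WT S1 and WT S2. At the level of single genes, all 3 S3 arrays lay below all 3 S2 arrays for 44 members in Mst1KO, where 20.1% of all genes did so, and for 47 in WT, where 18.7% of all genes did so.

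**Figure D1:**
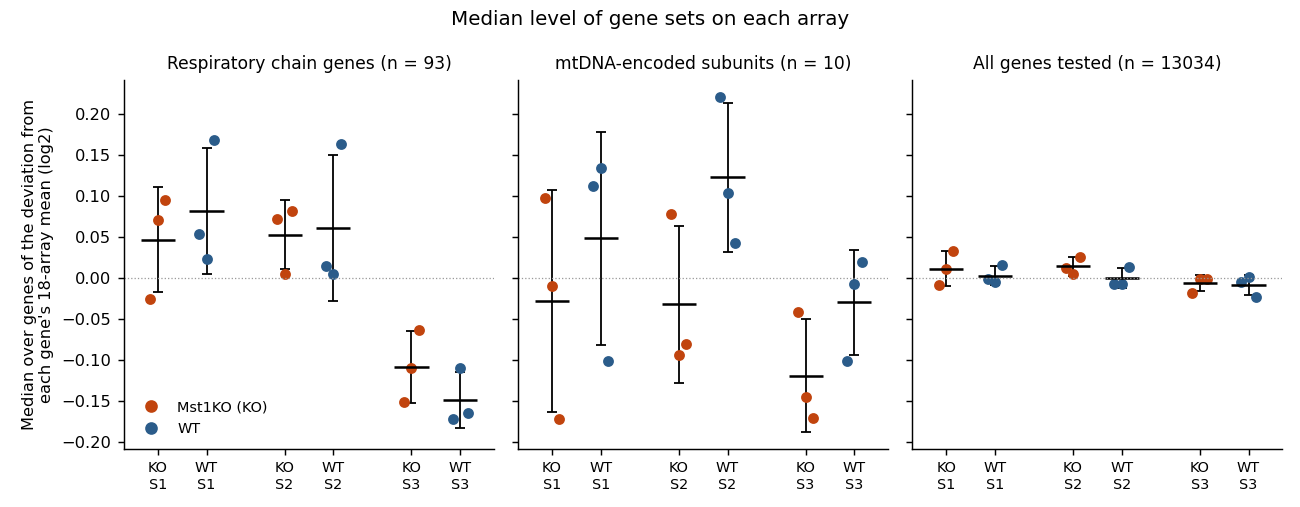
Each point is 1 array, and the y axis gives the median over genes of the deviation from each gene's own 18-array mean, in log2 units, for the 93 respiratory chain genes, 10 subunits encoded by mitochondrial DNA and all 13034 genes tested; bars are group means and whiskers SD over 3 arrays. For the respiratory chain genes the S3 arrays of Mst1KO and WT lie below every S1 and S2 array, while the points for all genes stay between -0.02 and 0.03.

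Cox10, which makes the heme A precursor that complex IV needs, had the lowest p of all members in both genotypes. Its log2 values were 8.77, 9.01 and 9.06 in Mst1KO S1, 8.95, 8.96 and 9.22 in Mst1KO S2 and 8.07, 8.23 and 8.13 in Mst1KO S3. They were 8.87, 8.71 and 8.87 in WT S1, 8.95, 8.80 and 9.05 in WT S2 and 7.72, 7.72 and 8.12 in WT S3. Every S3 array was below every S1 and S2 array of either genotype, with 2 of the WT S3 arrays lowest. S3 minus S2 was -0.90 ± 0.12 in Mst1KO, a fold of 0.536 (adjusted p = 5.83e-05), and -1.08 ± 0.12 in WT, a fold of 0.472 (adjusted p = 5.14e-06). Cox15, which carries out the next step to heme A, had a difference of -0.43 in WT (adjusted p = 0.00533), and its S3 values of 7.60, 7.66 and 7.61 in Mst1KO lay below the S2 values of 7.83, 7.80 and 7.92 without a call.

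Ndufc2, a membrane subunit of complex I, had 10.43, 10.31 and 10.34 in Mst1KO S3, against 10.74, 10.82 and 10.69 in Mst1KO S2, and 10.03, 10.24 and 10.25 in WT S3, against 10.70, 10.71 and 10.95 in WT S2. The S3 arrays lay below the S2 arrays in both genotypes, and the WT S3 arrays lay below those of Mst1KO S3. S3 minus S2 was -0.39 in Mst1KO (adjusted p = 0.0136) and -0.61 ± 0.10 in WT (adjusted p = 0.00027), a fold of 0.655. In Mst1KO the adjusted p was 0.0551 without S2 replicate 2 and 0.0532 without S3 replicate 2. Ndufv2, a subunit of the arm of complex I that takes electrons from NADH, had 9.25, 9.42 and 9.26 in Mst1KO S3, against 9.57, 9.58 and 9.64 in Mst1KO S2. In WT it had 9.24, 9.11 and 9.12 at S3, against 9.48, 9.59 and 9.61 at S2. Again no S3 array reached the S2 arrays of its genotype, and the differences were -0.29 ± 0.08 in Mst1KO (adjusted p = 0.0194) and -0.40 ± 0.08 in WT (adjusted p = 0.00122). For Ndufv2 in Mst1KO the adjusted p was 0.0678 without S2 replicate 3, 0.0837 without S3 replicate 1 and 0.0719 without S3 replicate 3.

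Promoters are shown for the 5 genes with the lowest p for S3 minus S2 in WT among those called lower in both genotypes, with a promoter in the table. Each runs 5′ to 3′ on the strand of its gene, from 250 bases before to 50 bases after the start, from RefSeq on GRCm38.p6. Capitals mark a match to the ETS and GABP core ACTTCCG, which reads CGGAAGT on the other strand, or to the YY1 core AAGATGG.
Cox10, chr11:64079423-64079722, minus strand: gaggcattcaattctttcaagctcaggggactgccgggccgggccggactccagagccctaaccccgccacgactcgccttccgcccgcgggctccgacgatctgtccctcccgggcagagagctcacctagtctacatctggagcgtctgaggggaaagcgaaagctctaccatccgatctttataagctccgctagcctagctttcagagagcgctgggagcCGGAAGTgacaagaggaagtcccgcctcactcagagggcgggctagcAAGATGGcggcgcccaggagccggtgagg
Ndufc2, chr7:97399753-97400052, plus strand: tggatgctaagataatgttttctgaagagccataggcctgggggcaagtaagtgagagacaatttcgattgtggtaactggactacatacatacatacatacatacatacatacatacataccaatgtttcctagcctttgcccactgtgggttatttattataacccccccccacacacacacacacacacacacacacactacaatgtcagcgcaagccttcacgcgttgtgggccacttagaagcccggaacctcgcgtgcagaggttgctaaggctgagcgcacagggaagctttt
Ndufv2, chr17:66101510-66101809, minus strand: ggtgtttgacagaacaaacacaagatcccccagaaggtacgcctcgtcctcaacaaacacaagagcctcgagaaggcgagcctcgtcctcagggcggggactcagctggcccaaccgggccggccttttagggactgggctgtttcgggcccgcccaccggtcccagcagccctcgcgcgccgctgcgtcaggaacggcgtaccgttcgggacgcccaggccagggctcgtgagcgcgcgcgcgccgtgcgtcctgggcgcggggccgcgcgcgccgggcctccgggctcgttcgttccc
Cox7a2, chr9:79759804-79760103, minus strand: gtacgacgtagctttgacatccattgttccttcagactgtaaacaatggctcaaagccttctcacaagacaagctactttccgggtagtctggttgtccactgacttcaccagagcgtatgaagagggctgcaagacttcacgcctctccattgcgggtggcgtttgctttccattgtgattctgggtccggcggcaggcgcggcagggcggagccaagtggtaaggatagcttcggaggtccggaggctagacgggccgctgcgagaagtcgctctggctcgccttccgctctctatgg
Atp5md, chr19:47090598-47090897, minus strand: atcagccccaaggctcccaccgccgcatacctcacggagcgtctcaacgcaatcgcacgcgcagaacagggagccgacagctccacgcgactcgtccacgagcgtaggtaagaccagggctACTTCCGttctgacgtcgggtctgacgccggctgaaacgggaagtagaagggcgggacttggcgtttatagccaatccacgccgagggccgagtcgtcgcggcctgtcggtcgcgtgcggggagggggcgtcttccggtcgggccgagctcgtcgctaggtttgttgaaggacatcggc

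The Cox10 window holds an ETS and GABP core 26 bases before the start and a YY1 core 22 bases after it, and the Atp5md window an ETS and GABP core 129 bases before the start. The other windows hold no match to the 4 motifs searched. These were the NRF1 core TGCGCA, the ETS and GABP core ACTTCCG, the core AAGGTCA bound by estrogen-related receptors, and the YY1 core AAGATGG, on both strands, with overlaps between motifs left in. Of the 101 members, 82 had a promoter in the table. Their shares with a match were 23.2%, 20.7%, 7.32% and 15.9% for the motifs in that order, beside 14.9%, 13.9%, 3.91% and 8.13% of the 10188 tested genes with a promoter. Among the 29 members with a promoter that were lower at S3 than at S2 in either genotype, the shares were 17.2%, 27.6%, 10.3% and 17.2%, and among the 49 that were tested and called in neither they were 26.5%, 18.4%, 4.08% and 14.3%. These are matches of letters in a fixed window, and no test was run on them.

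Among the 31 tested subunits of complex I, 7 fell in Mst1KO and 10 in WT from the comparison of S3 with S2, with median differences of -0.18 and -0.23. Of all genes tested, 9.18% were called lower in Mst1KO and 13.2% in WT. Of the 6 core subunits of its peripheral arm, which carries the electrons, 3 fell in Mst1KO and 1 in WT, the latter near the share of all genes. Ndufv1, which binds the NADH, had 8.81, 8.86 and 8.86 in Mst1KO S3, against 9.05, 9.07 and 9.20 in Mst1KO S2, with a difference of -0.26 ± 0.08 (adjusted p = 0.0313). In WT it had 8.68, 8.79 and 8.86 at S3, against 9.0, 8.85 and 8.85 at S2, so that the stages overlapped there, without a call. For Ndufv1 in Mst1KO, leaving out S2 replicate 2 or 3 or any 1 array of S3 gave adjusted p-values of 0.0532 to 0.125. Ndufs8, an iron-sulfur subunit, differed by -0.46 in Mst1KO (adjusted p = 0.0164; 0.0658 without S3 replicate 1 and 0.0677 without S3 replicate 2).

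Ndufs1, the largest iron-sulfur subunit, had 7.53, 7.48 and 7.45 in Mst1KO S3, against 7.48, 7.29 and 7.58 in Mst1KO S2, and 7.55, 7.51 and 7.45 in WT S3, against 7.73, 7.61 and 7.69 in WT S2. The stages overlapped in Mst1KO and not in WT, and the differences of 0.04 and -0.17 were not called. Ndufc1, a small membrane subunit, had 6.47, 6.45 and 6.57 in Mst1KO S3, against 7.20, 7.09 and 7.20 in Mst1KO S2, a difference of -0.67 ± 0.17 (adjusted p = 0.0103). Its WT values of 6.64, 6.68 and 6.82 at S3 also lay below those of 6.91, 7.28 and 7.19 at S2, without a call. Ndufa13 varied least of all members, with group means that spanned 0.068 log2 units, and its differences were -0.07 in Mst1KO and -0.03 in WT.

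Complex II had 4 subunits tested, and 0 were called at S3 against S2 in either genotype by limma. Sdha, its flavin-bearing catalytic subunit, had 9.62, 9.81 and 9.77 in Mst1KO S3, against 9.97, 9.64 and 9.87 in Mst1KO S2, and 9.97, 9.92 and 9.81 in WT S3, against 9.82, 9.82 and 9.85 in WT S2. The stages overlapped in both genotypes. The 95% interval of the difference ran from -0.29 to 0.10 in Mst1KO and from -0.13 to 0.27 in WT. Sdhb, the iron-sulfur subunit that receives electrons from Sdha, had 8.83, 8.97 and 9.02 in Mst1KO S3, against 9.10, 9.12 and 9.12 in Mst1KO S2, and 8.90, 9.01 and 8.78 in WT S3, against 9.0, 9.07 and 9.48 in WT S2. The stages were apart in Mst1KO and overlapped in WT, and the differences of -0.17 and -0.29 were not called.

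Of the 7 tested genes of complex III, 0 fell in Mst1KO and 2 in WT, where 9.18% and 13.2% of all genes were called lower. The median differences were -0.16 and -0.20. The 2 that fell in WT were Uqcrq, which encodes a small subunit, and Uqcrfs1, which encodes the Rieske iron-sulfur protein. Uqcrq had 8.14, 8.38 and 8.18 in Mst1KO S3, against 8.56, 8.46 and 8.60 in Mst1KO S2, and 8.0, 8.10 and 8.15 in WT S3, against 8.41, 8.64 and 8.85 in WT S2. All S3 arrays were lower than the S2 arrays of their genotype. The differences were -0.31 in Mst1KO (adjusted p = 0.0844) and -0.55 ± 0.12 in WT (adjusted p = 0.00248). For Uqcrfs1 they were -0.31 in Mst1KO (adjusted p = 0.0532) and -0.33 ± 0.11 in WT (adjusted p = 0.0309). The WT value of Uqcrfs1 had an adjusted p of 0.0561 without S2 replicate 2, 0.124 without S2 replicate 3, 0.0958 without S3 replicate 1 and 0.133 without S3 replicate 3. Uqcrc1, a core protein, differed by -0.06 in Mst1KO and -0.22 in WT and was not called.

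Of the 15 tested subunits of complex IV, tissue isoforms included, 2 fell in Mst1KO and 5 in WT. Of all genes, 9.18% were called lower in Mst1KO, which the count there is near, and 13.2% in WT. Cox7a2, the form of subunit VIIa present in most tissues, had 11.08, 11.09 and 11.13 in Mst1KO S3, against 11.26, 11.37 and 11.43 in Mst1KO S2, and 11.06, 11.08 and 11.02 in WT S3, against 11.41, 11.42 and 11.54 in WT S2. The stages did not overlap in either genotype. The differences were -0.26 ± 0.08 in Mst1KO (adjusted p = 0.0386) and -0.41 ± 0.08 in WT (adjusted p = 0.00141). In Mst1KO the adjusted p of Cox7a2 lay between 0.0706 and 0.138 on leaving out S2 replicate 2 or 3 or any 1 array of S3. Cox5a, a subunit on the matrix side, had 9.54, 9.62 and 9.66 in Mst1KO S3, against 9.89, 9.78 and 9.90 in Mst1KO S2, and 9.66, 9.63 and 9.65 in WT S3, against 9.88, 10.08 and 10.06 in WT S2. No S3 array reached the S2 arrays, and the differences were -0.25 ± 0.08 in Mst1KO (adjusted p = 0.0488) and -0.35 ± 0.08 in WT (adjusted p = 0.00501). In Mst1KO leaving out any 1 of the 6 arrays took the adjusted p of Cox5a to between 0.0534 and 0.171.

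**Figure D2:**
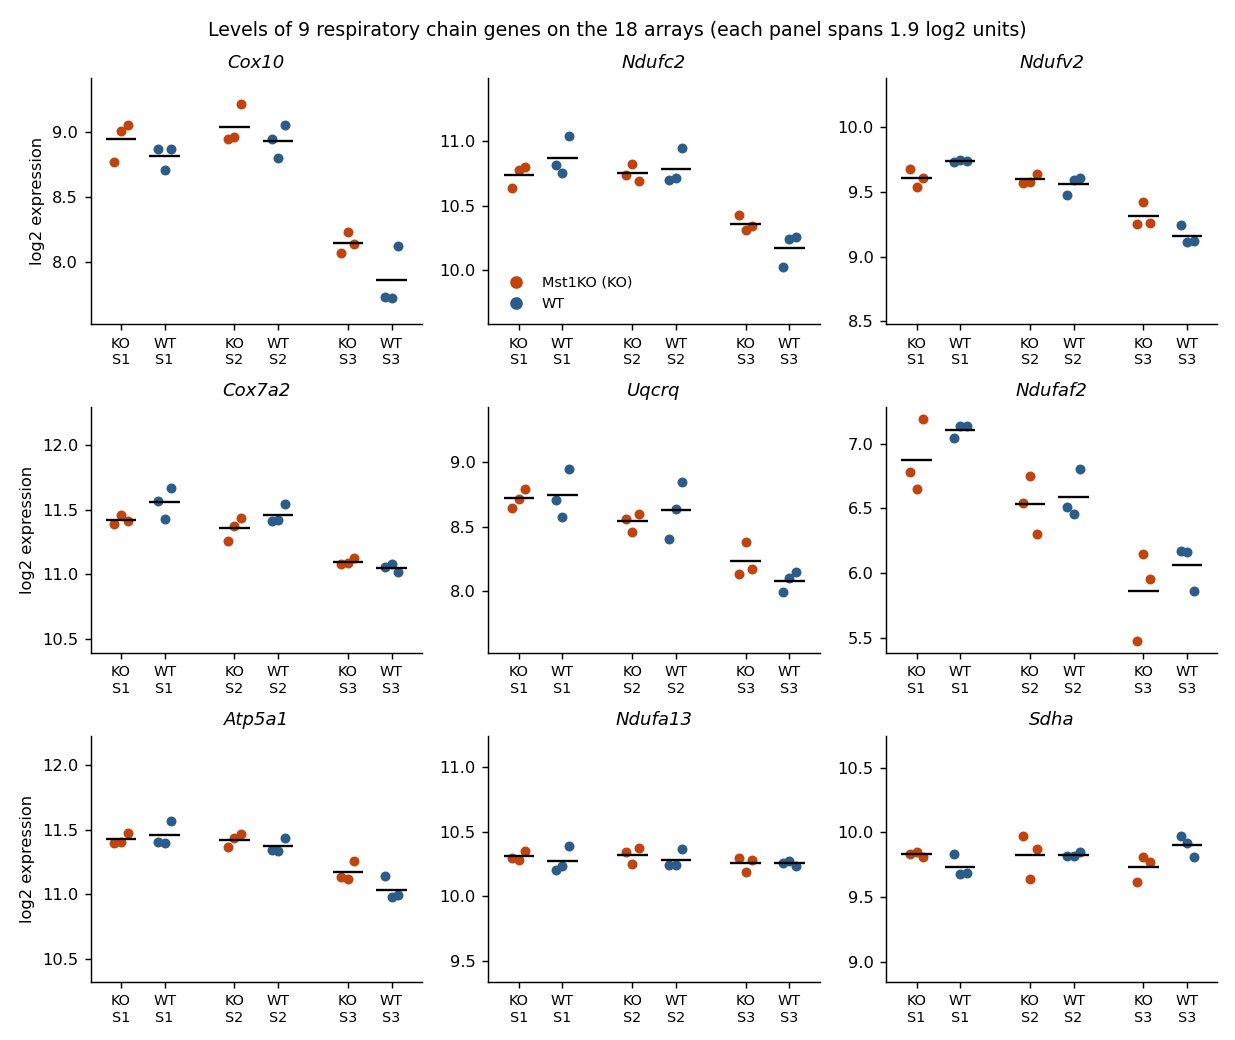
Log2 expression of 9 genes on each array, by stage and genotype, with Mst1KO left of WT at each stage; points are arrays, bars are group means, and every panel spans 1.9 log2 units. Cox10 is lowest on the 6 arrays of S3, with values of 7.72 to 8.23, while Ndufa13 and Sdha show no such step.

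Complex IV has several subunits that come in alternative forms. Of the pairs, Cox4i1, the form present in most tissues, differed by -0.20 in Mst1KO (adjusted p = 0.109) and -0.18 in WT (adjusted p = 0.135), and Cox4i2, known for its place in lung and its response to low oxygen, by 0.03 and -0.16, all without a call. Cox5b differed by -0.16 in Mst1KO and -0.26 in WT (adjusted p = 0.0434 in WT, and 0.207 without S2 replicate 3, 0.143 without S3 replicate 3, 0.0812 without S2 replicate 1, 0.0654 without S3 replicate 1 and 0.0684 without S3 replicate 2). Cox6b1 had 9.07, 9.04 and 9.08 in Mst1KO S3, against 9.28, 8.95 and 9.10 in Mst1KO S2, and 8.95, 8.99 and 8.80 in WT S3, against 9.26, 9.17 and 9.51 in WT S2. The stages overlapped in Mst1KO, with a difference of -0.05, and were apart in WT, with one of -0.40 (adjusted p = 0.00977; 0.0583 without S2 replicate 3). The testis form Cox6b2 differed by 0.05 and -0.09, and the ubiquitous Cox6a1 and the muscle form Cox6a2 by -0.23 and 0.10 in Mst1KO and -0.28 and 0.25 in WT, without a call.

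Cox7a1, the heart and muscle form of subunit VIIa, had 6.04, 5.45 and 5.35 in Mst1KO S3, against 6.06, 6.50 and 5.51 in Mst1KO S2, and 5.40, 5.16 and 5.37 in WT S3, against 6.27, 5.66 and 5.91 in WT S2. The stages overlapped in Mst1KO and not in WT, where the difference was -0.64 ± 0.22 (adjusted p = 0.0426). Without WT S2 replicate 1 or 3, or any 1 array of WT S3, the adjusted p of Cox7a1 in WT was 0.0691 to 0.168. Cox7a2l, which joins complexes III and IV, differed by -0.03 in Mst1KO and 0.11 in WT, and Cox8a by -0.17 and -0.05. Cox8b and Cox8c, the forms of muscle and testis, had group means of 3.79 to 3.91 and 3.11 to 3.29, below the array median throughout. Ndufa4, placed with complex IV here, differed by -0.15 and -0.19, and its relative Ndufa4l2 was below the array median on all 18 arrays.

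Of the 16 tested genes of complex V, 5 fell in Mst1KO and 8 in WT, where 9.18% and 13.2% of all genes were called lower. The median differences were -0.16 and -0.27. Atp5a1, the alpha subunit of the catalytic head, had 11.13, 11.12 and 11.26 in Mst1KO S3, against 11.36, 11.44 and 11.47 in Mst1KO S2, and 11.14, 10.98 and 10.99 in WT S3, against 11.34, 11.34 and 11.43 in WT S2. The stages did not overlap in either genotype. The differences were -0.25 ± 0.08 in Mst1KO (adjusted p = 0.0433) and -0.34 ± 0.08 in WT (adjusted p = 0.00618). In Mst1KO the adjusted p of Atp5a1 was 0.0551 to 0.134 without S2 replicate 1, 2 or 3 or S3 replicate 1 or 2. Atp5b, the beta subunit that forms ATP, had 11.670, 11.864 and 11.833 in Mst1KO S3, against 11.861, 11.978 and 11.996 in Mst1KO S2, and 11.69, 11.65 and 11.67 in WT S3, against 11.85, 11.91 and 12.07 in WT S2. Its differences were -0.16 in Mst1KO (adjusted p = 0.223), where 1 array of S3 reached the lowest of S2, and -0.27 ± 0.08 in WT (adjusted p = 0.0238). In WT the adjusted p of Atp5b was 0.112 without S2 replicate 3, 0.0689 without S3 replicate 2 and 0.0527 without S3 replicate 3.

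Atp5g1, Atp5g2 and Atp5g3 encode the same mature subunit c, which forms the ring of the rotor. Atp5g3 had 8.66, 8.70 and 8.72 in Mst1KO S3, against 8.79, 8.94 and 8.97 in Mst1KO S2, and 8.68, 8.55 and 8.69 in WT S3, against 8.89, 9.07 and 9.05 in WT S2. The S3 arrays were lower in both genotypes, by 0.21 on average in Mst1KO (adjusted p = 0.0903) and by 0.36 in WT (adjusted p = 0.00337). Atp5g1 had differences of 0.07 in Mst1KO and 0.27 in WT and Atp5g2 of -0.13 and -0.16, none of them called, and 0.27 was the largest positive difference of any member in WT. Atp5e, the epsilon subunit, fell by 0.39 on the log2 scale in Mst1KO (adjusted p = 0.00928), but its other probe set differed by -0.07, and the mean of both gave an adjusted p of 0.152. Ndufs5 and Atp5j2 encode regular subunits of complexes I and V, yet their probe sets read 3.51 to 4.39 and 3.72 to 4.75 and were not tested.

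Of the 20 assembly factors, 3 fell at S3 against S2 in Mst1KO and 4 in WT, where 9.18% and 13.2% of all genes were called lower. Ndufaf2, which helps to finish complex I, had 5.48, 6.14 and 5.96 in Mst1KO S3, against 6.54, 6.75 and 6.30 in Mst1KO S2, and 6.17, 6.16 and 5.86 in WT S3, against 6.51, 6.46 and 6.80 in WT S2. The stages did not overlap in either genotype, and S3 replicate 1 of Mst1KO was the lowest of all arrays. The differences were -0.67 ± 0.17 in Mst1KO (adjusted p = 0.0128) and -0.53 in WT (adjusted p = 0.0359). For Ndufaf2 in Mst1KO the adjusted p was 0.0649 without S2 replicate 2 and 0.0795 without S3 replicate 1, and in WT it was 0.0518 to 0.145 without S2 replicate 1 or 3 or any 1 array of S3. Ndufaf6, another complex I factor, had 6.23, 6.11 and 6.53 in WT S3, against 6.90, 6.82 and 7.19 in WT S2, a difference of -0.68 ± 0.17 (adjusted p = 0.00632). Cox14, which acts on the making of the COX1 protein, differed by -0.40 ± 0.11 in Mst1KO (adjusted p = 0.0135; 0.0644 without S3 replicate 1 and 0.0576 without S3 replicate 2).

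The comparisons of S3 with S2 share no array between the genotypes, but the spread of a gene was estimated over all groups together. Its standard error was therefore the same in Mst1KO and WT, so calls in both genotypes are not independent. 12 members fell in both genotypes, which is 70.6% of those called in Mst1KO and 41.4% of those called in WT. The same overlap was not counted over all genes, so these shares are not shown to be particular to the members. They were Atp5a1, Atp5j, Atp5k, Atp5md, Cox10, Cox5a, Cox7a2, Ndufaf2, Ndufb6, Ndufc2, Ndufv2 and Ndufv3, which come from complexes I, IV and V. A member called in one genotype and not in the other is not shown to differ between them, and the test of that difference is given with the genotype comparisons.

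**Figure D3:**
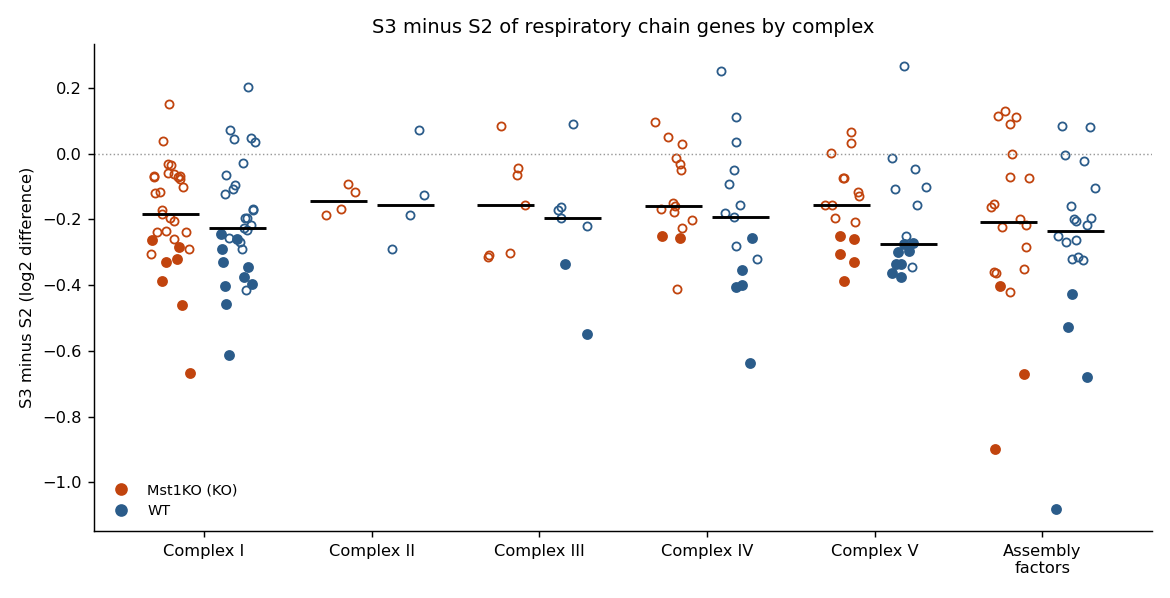
Each point is 1 gene, placed by complex on the x axis, and the y axis gives its S3 minus S2 difference in log2 units, with Mst1KO left of WT; filled points were called at an adjusted p under 0.05, open points were not, and bars are medians. The medians lie between -0.27 and -0.14 in every complex and in the assembly factors, and the filled points are all below 0.

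Set against S1, S3 was lower as well. In Mst1KO 23 members fell and 1 rose, which is 24.7% lower, where 14.4% of all genes were called lower and 12.3% higher. In WT 38 fell and 0 rose, which is 40.9% lower, where 18.4% of all genes were called lower and 15.4% higher. The median differences were -0.14 in Mst1KO and -0.24 in WT. In Mst1KO the count of lower members was 15 without S1 replicate 2, 14 without S1 replicate 3 and 15 without S3 replicate 1, and in WT it lay between 27 and 39 when 1 array was left out. Subunits of complex I made up 10 of the calls in Mst1KO and 15 in WT. 20 members were lower in both genotypes, which is 87% of those of Mst1KO and 52.6% of those of WT. This overlap, too, was not counted over all genes.

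The largest fall between S3 and S1 was that of Ndufaf2, with 6.78, 6.65 and 7.19 in Mst1KO S1 and 7.05, 7.13 and 7.13 in WT S1, all above the S3 arrays of their genotype. S3 minus S1 was -1.01 ± 0.17 in Mst1KO (adjusted p = 0.000298), a fold of 0.496, and -1.04 in WT (adjusted p = 0.000162). Cox10 fell by 0.80 in Mst1KO and by 0.96 in WT (adjusted p = 9.47e-05 and 9.66e-06). Atp5md, a small membrane subunit of the ATP synthase, had 11.69, 11.89 and 11.91 in Mst1KO S3, against 12.09, 12.25 and 12.28 in Mst1KO S1, and 11.71, 11.83 and 11.95 in WT S3, against 12.36, 12.38 and 12.34 in WT S1. The stages were apart in both genotypes, by -0.38 in Mst1KO (adjusted p = 0.00388) and -0.53 in WT (adjusted p = 0.000157). Ndufv2, Ndufc2 and Cox7a2 fell by 0.58, 0.70 and 0.51 in WT.

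Sdhb was called here in both genotypes, at -0.33 ± 0.12 in Mst1KO (adjusted p = 0.0475) and -0.41 ± 0.12 in WT (adjusted p = 0.0111). In Mst1KO leaving out any 1 of the 6 arrays took its adjusted p to between 0.0553 and 0.167, and in WT it was 0.0575 without S1 replicate 3 and 0.0503 without S3 replicate 3. Cox7a1 differed by -0.97 ± 0.22 in WT (adjusted p = 0.00203), where S1 had 6.47, 6.13 and 6.25. The member that rose was Ndufaf1, a complex I assembly factor, which had 7.20, 7.04 and 6.94 in Mst1KO S3, against 6.29, 6.71 and 6.87 in Mst1KO S1. Its difference was 0.43 ± 0.14 in Mst1KO (adjusted p = 0.0285), with S1 replicate 1 lowest of all, and 0.02 ± 0.14 in WT. The adjusted p of Ndufaf1 in Mst1KO was 0.161 without S1 replicate 1, 0.118 without S3 replicate 1 and 0.062 without S3 replicate 2.

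Between S2 and S1 no member was called by limma in either genotype. In Mst1KO 0 of 93 were called, where 6.67% of all genes were, and 5 had an unadjusted p under 0.05, as did 19.9% of all genes. In WT 0 of 93 were called, where 3.84% of all genes were, and 5 had an unadjusted p under 0.05, as did 16.4% of all genes. The median difference was 0.01 in both genotypes, and its sign changed when 1 array was left out, with a range of -0.04 to 0.03 in Mst1KO and -0.075 to 0.03 in WT. The lowest p-values belonged to Ndufs3, a peripheral-arm subunit of complex I, with 0.27 ± 0.10 in Mst1KO (adjusted p = 0.144), and to Ndufaf2, with -0.51 ± 0.17 in WT (adjusted p = 0.128).

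Across the 6 groups, the lowest mean of a member fell in S3 for 72 of the 93 members, 23 of them in Mst1KO S3 and 49 in WT S3. Of all genes tested, 42.4% had their lowest mean in S3, beside 77.4% of the members. The group means of a member spanned a median of 0.354 log2 units, beside 0.411 for all genes tested, and the median SD within groups was 0.119, beside 0.167. The widest spans were 1.25 for Ndufaf2, 1.19 for Cox10, 0.97 for Cox7a1, 0.91 for Ndufaf6 and 0.70 for Ndufc2. A few members ran against the others: over the 6 group means, the correlation with the median profile of the members was -0.87 for Uqcrh, the hinge subunit of complex III, and -0.68 for Cox16, a complex IV assembly factor, beside a median of 0.81. Uqcrh had differences of 0.08 in Mst1KO and 0.09 in WT at S3 against S2, which were not called.

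Outside the members, the genes whose 6 group means followed the median profile most closely were the histone gene H2bc3 (r = 0.999), the cell cycle phosphatase gene Cdkn3 (r = 0.997), the histone gene H2ac15, the integrin adaptor gene Fermt3 and the mitotic kinase gene Plk1 (r = 0.996). These correlations span 6 points that share the same arrays and are descriptive. Of 23 tested genes of a cell cycle list, 21 fell at S3 against S2 in Mst1KO and 23 in WT, with median differences of -1.53 and -2.41. Their mean log2 level was 9.11 to 9.24, 8.54 to 8.81 and 7.19 to 7.52 on the arrays of Mst1KO S1, S2 and S3, and 9.28 to 9.43, 8.80 to 9.20 and 6.73 to 7.34 in WT. Macrophage and dendritic cell markers moved the other way, with 6 of 10 higher at S3 than at S2 in Mst1KO and 5 of 10 in WT. Of all genes, 8.01% and 10.4% were called higher. The mean level of these markers was 4.96 to 5.16, 5.67 to 5.78 and 6.23 to 6.68 in Mst1KO S1, S2 and S3, and 4.94 to 5.17, 5.29 to 5.37 and 6.01 to 6.09 in WT. Of 4 NK and innate lymphoid markers, Fcer1g and Tyrobp rose in both genotypes, by 2.86 and 2.34 in Mst1KO and by 3.18 and 2.01 in WT. Ncr1 rose by 1.36 in WT and was not called in Mst1KO, and Gata3 was called lower in both, at -0.28 and -0.25. Of 6 conventional T cell markers, Ccr7, Igfbp4 and Lef1 fell in both genotypes, with differences of -2.56, -2.82 and -0.68 in Mst1KO and -2.35, -2.66 and -0.85 in WT. Actn1, Cd8b1 and Satb1 were not called, at -0.52, 0.30 and -0.20 in Mst1KO and 0.16, -0.14 and -0.03 in WT. The mean level of the list was 6.88 to 7.10 in Mst1KO S3, against 7.74 to 8.02 in Mst1KO S2, and 7.05 to 7.13 in WT S3, against 7.79 to 8.17 in WT S2. Of 3 gamma-delta T cell markers, Cd163l1 and Blk fell in both genotypes, with differences of -1.12 and -1.01 in Mst1KO and -1.51 and -2.83 in WT. Of 3 markers of immature thymocytes, Cd24a rose in both genotypes, by 0.74 in Mst1KO and 0.82 in WT. Dntt was called higher in Mst1KO, at 0.78, and not called in WT, at 0.23. Ptcra was called higher in WT, at 0.46, and not called in Mst1KO, at -0.16. The mean level of these markers stayed between 4.33 and 5.05 on all arrays. The part of any of these lists in the lower respiratory chain values at S3 was not tested.

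Mst1KO and WT cells of the same stage were then compared. At S1, 0 of 93 members were called by limma, where 0.33% of all genes were, and 10 had an unadjusted p under 0.05, as did 11.2% of all genes. At S2, 0 were called, where 1.17% of all genes were, and 4 had an unadjusted p under 0.05, as did 13.4% of all genes. At S3, 0 were called, where 3.4% of all genes were, and 4 had an unadjusted p under 0.05, as did 16.7% of all genes. Averaged over the stages, 0 were called, where 2.17% of all genes were, and 7 had an unadjusted p under 0.05, as did 17.2% of all genes. The median Mst1KO minus WT difference of the members was -0.03, -0.0025 and 0.03 at S1, S2 and S3. When 1 array was left out it ran from -0.06 to 0.02 at S1, from -0.04 to 0.05 at S2 and from 0.02 to 0.05 at S3, so that its sign was not stable at S1 or S2, and it was -0.03 at S3 with the arrays centred on their medians. At S3, 56 of the 93 differences were positive.

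With 3 arrays a side, the 95% intervals of the members' genotype differences together spanned from -0.97 to 1.09 at S1, from -0.71 to 0.96 at S2 and from -0.73 to 0.79 at S3, and the median standard error was 0.11. For Atp5b the interval ran from -0.20 to 0.15 at S1, from -0.17 to 0.18 at S2 and from -0.06 to 0.29 at S3. Groups that did not overlap were found for 16 members at S1, where 18.1% of all genes had such groups, and for 13 at S3, where 23% of all genes had.

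Some of the members with the lowest p at each stage are given as values. At S1, Ndufb3, a membrane-arm subunit of complex I, had 8.38, 8.43 and 8.24 in Mst1KO, against 8.66, 8.92 and 8.80 in WT. The groups did not overlap, and the difference was -0.44 ± 0.12 (adjusted p = 0.127). At S2, Ndufv1 had the lowest p, with a difference of 0.21 ± 0.08 (adjusted p = 0.251), followed by Ndufs1 with -0.23 ± 0.09 (adjusted p = 0.28). At S3, Cox20, an assembly factor that guides the COX2 protein, had 8.81, 9.02 and 8.97 in Mst1KO, against 8.23, 8.56 and 8.57 in WT. All Mst1KO arrays were higher, and the difference was 0.48 ± 0.15, with a 95% interval from 0.18 to 0.79 (adjusted p = 0.0818). Cox10 differed by 0.29 ± 0.12 at S3 (adjusted p = 0.235) and Uqcrc1 by 0.24 ± 0.09 (adjusted p = 0.195).

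**Figure D4:**
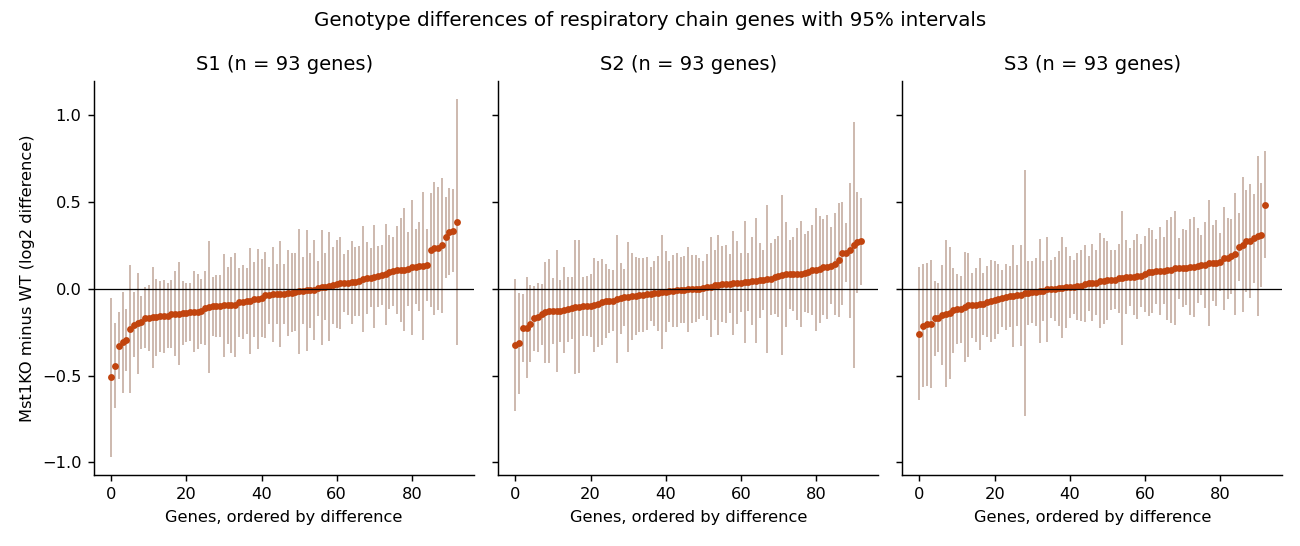
Mst1KO minus WT differences of the 93 respiratory chain genes at S1, S2 and S3, in log2 units, ordered by size within each stage, with 95% intervals from limma. The medians lie at -0.03, -0.0025 and 0.03, and 0 genes were called at any stage.

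The fall between S3 and S2 had a larger median and more called members in WT, and this order was not stable: the counts were 11 in Mst1KO and 10 in WT with only the groups compared in the fit and 22 and 20 with array weights, and without WT S2 replicate 3 the WT count was 13 and its median -0.17. The difference between the genotypes was therefore tested itself. For the S3 minus S2 change, Mst1KO minus WT, 0 of 93 members were called by limma, where 0.368% of all genes were, and 1 had an unadjusted p under 0.05, as did 11.2% of all genes. The median of this difference was 0.04, against 0.006 without WT S2 replicate 3 and -0.0019 with the arrays centred on their medians, and 61 of the 93 values were positive. Cox6b1 had the lowest p, with 0.35 ± 0.15 (adjusted p = 0.37), and Cox10 had 0.18 ± 0.17, with a 95% interval from -0.18 to 0.55. For the S2 minus S1 change, 0 were called, where 0.0153% of all genes were, and 1 had an unadjusted p under 0.05, as did 6.77% of all genes. This was Ndufb3, with 0.44 ± 0.16 (adjusted p = 0.595). The median standard error of these differences was 0.15.

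The other parts of the chain were set beside the members. Of the 10 tested subunits made from mitochondrial DNA, only ND3, a complex I subunit, was called lower at S3 against S2. This is near the share of all genes, of which 9.18% were called lower in Mst1KO and 13.2% in WT. ND3 fell by 0.42 in Mst1KO (adjusted p = 0.00656) and by 0.41 in WT (adjusted p = 0.00532), and the other 9 were not called. The array score of the 10 subunits was -0.03 ± 0.14, -0.03 ± 0.10 and -0.12 ± 0.07 in Mst1KO S1, S2 and S3. In WT it was 0.05 ± 0.13, 0.12 ± 0.09 and -0.03 ± 0.06 (SD, n = 3 each). These scores are descriptive. Of 8 partner genes outside the name rule, Atpif1, the inhibitor of the ATP synthase, had -0.53 ± 0.15 in Mst1KO (adjusted p = 0.0198) and -1.14 ± 0.15 in WT (adjusted p = 2.22e-05). Atpif1 was also higher in Mst1KO than in WT at S3, by 0.62 ± 0.15 (adjusted p = 0.0284). Cycs, the cytochrome c gene, and Etfa, which passes electrons from fatty acid oxidation toward ubiquinone, fell by 0.36 and 0.45 in WT.

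Of 26 tested assembly factors outside the name rule, 3 fell at S3 against S2 in Mst1KO and 2 in WT, which is 11.5% and 7.69%, where 9.18% and 13.2% of all genes were called lower. Tmem70, an assembly factor of the ATP synthase, was lower in both, by -0.51 in Mst1KO and -0.64 in WT (adjusted p = 0.00291 in WT). Foxred1, a complex I factor, fell by 0.66 in WT (adjusted p = 0.000797). Among 16 tested regulators, Hcfc1, a cofactor of GABP, had -0.26 in Mst1KO and -0.28 in WT and was called in both. Myc rose by 0.51 in Mst1KO (adjusted p = 0.0179), and Ppargc1b, a coactivator of respiratory chain genes, rose by 0.42 in WT (adjusted p = 0.036). Ppargc1a was never above the array median.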

How the data were processed

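Expression was measured on 18 MoGene 2.0 arrays, 3 for each of 6 groups of sorted thymic iNKT cells. The authors' deposited values are log2 RMA values; per the submitters' processing notes the software was Affymetrix Expression Console 1.1, while the level of summary, annotation and genome build are not given in the sources used here. RMA corrects background and sets the probe intensities of all arrays to 1 distribution. The 41345 probe sets were named from GEO's platform annotation: 23521 had 1 gene symbol, 1814 several and 16010 none. The brightest probe set stood for each gene, and 13034 genes passed the filter. A model of 6 group means was fitted with limma 3.58.1 (R 4.3.3), and p-values were adjusted by Benjamini-Hochberg over all genes tested in each comparison. The scripts were tested on simulated data. Array number limits the precision.

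The members and lists were chosen with earlier results of these data known. Genes were named from the 5 called members with the lowest p per direction and comparison, or from the 3 lowest where fewer than 3 were called. Not all of these are given in the text. Set subunits and isoform pairs were named as well, and others are examples chosen after their values were seen. Alternatives tried were other filters, median centring of the arrays, quantile normalization run again, a robust fit with variance trend, array weights, the mean of probe sets, fits of the compared groups alone, a replicate block and leaving out each array.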

Additional observations from a re-analysis of the deposited data

How the results depend on the processing

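The median of the members stayed below 0 at S3 against S2 and at S3 against S1 in both genotypes under all alternatives, and no called gene changed its sign. Medians of comparisons with no called member lay near 0 and did change sign: leaving out 1 array gave -0.06 to 0.02 for Mst1KO minus WT at S1, -0.04 to 0.05 at S2, -0.03 to 0.03 on average over the stages and -0.04 to 0.03 for S2 minus S1 in Mst1KO, and median centring gave -0.03 at S3. For S3 against S2, the count of members called lower in Mst1KO (17) was 10 without the filter on dim values and 11 with only the groups compared in the fit, and in WT (29) it was 18 without the filter and 10 with only the groups compared. Leaving out 1 array gave 4 to 11 in Mst1KO and 13 to 30 in WT. For S3 against S1, leaving out 1 array gave 14 to 25 lower in Mst1KO and 27 to 39 in WT, and 0 to 1 higher in either genotype. The 1 higher member of Mst1KO, Ndufaf1, was 0 with only the groups compared and 0 with the replicate block, and WT had 1 higher, against 0, with array weights, the replicate block, a robust fit with variance trend, median centring of the arrays, quantile normalization run again or a filter at the 75th percentile. Of the genotype counts of 0, the robust fit with variance trend gave 2 lower at S1, 1 higher at S3 and 1 lower on average over the stages, and array weights gave 1 higher at S3. Leaving out WT S2 replicate 3 moved the median S2 minus S1 difference in WT to -0.075 (range over left-out arrays -0.075 to 0.0292) and the median genotype difference in S2 minus S1 to 0.0846 (range -0.0405 to 0.0846). Members called lower in every fit at S3 against S2 were Cox10 and Ndufc1 in Mst1KO and 8 genes in WT: Cox10, Cox15, Cox7a2, Ndufaf6, Ndufb6, Ndufc2, Ndufv2 and Uqcrq. Why the counts moved was not tested. The largest shift of the median of all genes under another scaling was -0.0601, for Mst1KO minus WT at S3 with median centring.

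The fits of single stages and of stage changes did not take the replicate numbers as pairs. The comparison averaged over the stages did use them, since it first averaged the S1, S2 and S3 arrays of the same genotype and number. Not every same-numbered pair of 1 genotype correlated over 0.1 in its deviations: r was -0.05 to 0.21, with a median of 0.06 and 3 of 18 pairs over 0.1. Pairs of 1 genotype with different numbers had a median of -0.02, and 0 of 36 were over 0.1, so whether a number marks a shared source is not settled. With the replicate number as a block, 12 members were lower at S3 than at S2 in Mst1KO and 26 in WT, 24 and 38 were lower at S3 than at S1, and 0 were called between genotypes.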

Other observations

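Other mitochondrial gene groups were compared between S3 and S2, where 9.18% of all genes were called lower in Mst1KO and 13.2% in WT. Of 70 tested genes of mitochondrial ribosomal proteins, 7 were called lower in Mst1KO, which is 10% and near the share of all genes, and 24 in WT, which is 34.3%, with medians of -0.16 and -0.21. At S3, 62 of the 70 had a positive Mst1KO minus WT difference, with a median of 0.12. The median over all genes tested was 0.0097 there, and median centring of the arrays shifted it by -0.06. The 70 genes share the same arrays, and the share of positive differences over all genes was not counted. Of 21 genes of mitochondrial protein import, 4 were lower in Mst1KO, which is 19%, and 7 were lower, which is 33.3%, and 2 higher in WT. Hspd1, the mitochondrial chaperonin, fell by 0.28 in Mst1KO and by 0.55 in WT, and Timm23, the channel of the inner membrane translocase, fell by 0.38 and by 0.47. The 2 that were higher in WT were Timm10, at 0.36, and Timm10b, at 0.35, small chaperones between the membranes. Of 11 genes of coenzyme Q synthesis, Coq7 was lower in WT, by -0.90 (adjusted p = 0.00199 by limma).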
